A study of Mus musculus with 6 samples.

Results

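In double-positive thymocytes from Flvcr-/- and Flvcr+/+ mice, 34 genes of sterol synthesis, SREBP control, sterol transport and fatty acid synthesis were looked up by symbol or synonym, and 27 of them could be tested among 8808 genes in all. Probes counted as measured where their detection p was under 0.05 on at least 3 of 6 arrays, and the brightest such probe stood for its gene. Of the other 7 genes, Hmgcs1, Acat2 and Fdft1 had no probe of that name and were not analysed here. Probes of Ggps1, Abca1 and Acaca were detected on 0 arrays and those of Fasn on 1 Flvcr+/+ array, so these 4 genes have no value below. Of the 27 genes tested, 25 were detected on all 6 arrays. Each value is a background-corrected, quantile-normalized log2 intensity of 1 probe, so levels are compared between arrays and not between genes.

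The Flvcr-/- group was CD4+CD8+ cells sorted from the thymus of Flvcr-/- mice, with 3 arrays. The Flvcr+/+ group was the same sorted population from Flvcr+/+ mice, also with 3 arrays. Both were on a C57BL/6 background and no treatment is named for either. The labels give neither the age nor the sex of the animals and do not say how the gene was deleted or in which cells. Nor do they say whether a sample was 1 animal or a pool. The tests therefore see only the variation among these samples, part of which may be technical.

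Cholesterol is built from acetyl-CoA through mevalonate and isoprenoid units to squalene, and squalene is then closed into lanosterol and trimmed to cholesterol by a chain of oxidations, reductions and demethylations in the endoplasmic reticulum. Several of the late enzymes use molecular oxygen: squalene epoxidase (Sqle) is a flavoprotein, lanosterol demethylase (Cyp51) is a heme protein of the cytochrome P450 family, and Msmo1, Sc5d and the fatty acid desaturase Scd2 hold non-heme iron. When membrane sterol is low, SCAP escorts the precursor of SREBP2 (Srebf2) to the Golgi for cleavage, and the released factor raises transcription of most enzymes of the chain, while INSIG proteins hold it back. Flvcr1, the gene deleted here, encodes a protein of the cell surface that has been described as a heme exporter.

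Between 33.8% and 34.9% of 45281 probes were detected on each array. Flvcr1 read 9.92, 10.45 and 10.13 on Flvcr-/- arrays 1, 2 and 3, against 11.01, 11.28 and 10.93 on Flvcr+/+ arrays 1, 2 and 3. Its log2 fold change was -0.91 (SE 0.157), with an adjusted p of 0.0317 by limma, and the groups did not overlap. The Flvcr1 signal was lower and not absent, as the lowest detected values on the Flvcr-/- arrays were 5.40, 5.44 and 5.39. Of 12 listed markers of double-positive thymocytes, 10 were measured, with a median log2 fold change of -0.02, while Cd8a was detected on 0 arrays. Xist, transcribed from the inactive X chromosome of females, read 4.72 on Flvcr-/- array 1 and 4.72 on Flvcr+/+ array 3, and between 9.49 and 9.99 on the other 4 arrays. The Y-linked gene Eif2s3y read 9.99 and 10.12 on those same 2 low-Xist arrays. Each genotype therefore had 1 low-Xist array and 2 high-Xist arrays, so the arrays of a genotype did not all come from the same animals.

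None of the sterol and lipid genes passed the test between genotypes: 0 of 27 had an adjusted p under 0.05 by limma, where 0.148% of all genes tested did, and the smallest adjusted p among the 27 was 0.9997. At an unadjusted p under 0.05 there were 3 of 27 genes (11.1%, against 4.63% of all genes), namely Sqle, Hsd17b7 and Mvd, all 3 with a positive log2 fold change of Flvcr-/- minus Flvcr+/+. Of all genes tested, 2.6% had such a p with a positive value and 2.03% with a negative one. In total 19 of the 27 genes (70.4%, against 51.8% of all genes) had a positive value, and the median was 0.12, against 0.01 over all genes. The 3 arrays of 1 genotype did not overlap those of the other for 5 of 27 genes (18.5%, against 9.59% of all genes): Mvd, Msmo1, Hsd17b7 and Ebp with Flvcr-/- above, and Srebf2 with Flvcr-/- below. Over all genes, Flvcr-/- lay above in 5.23% and below in 4.36%. These genes are known to be co-regulated and are not independent of each other, and the counts are given as a description with no test. The count at an unadjusted p fell to 1 without Flvcr-/- array 2, without Flvcr+/+ array 1 or without Flvcr+/+ array 2, and was 5 without Flvcr+/+ array 3.

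**Figure D1:**
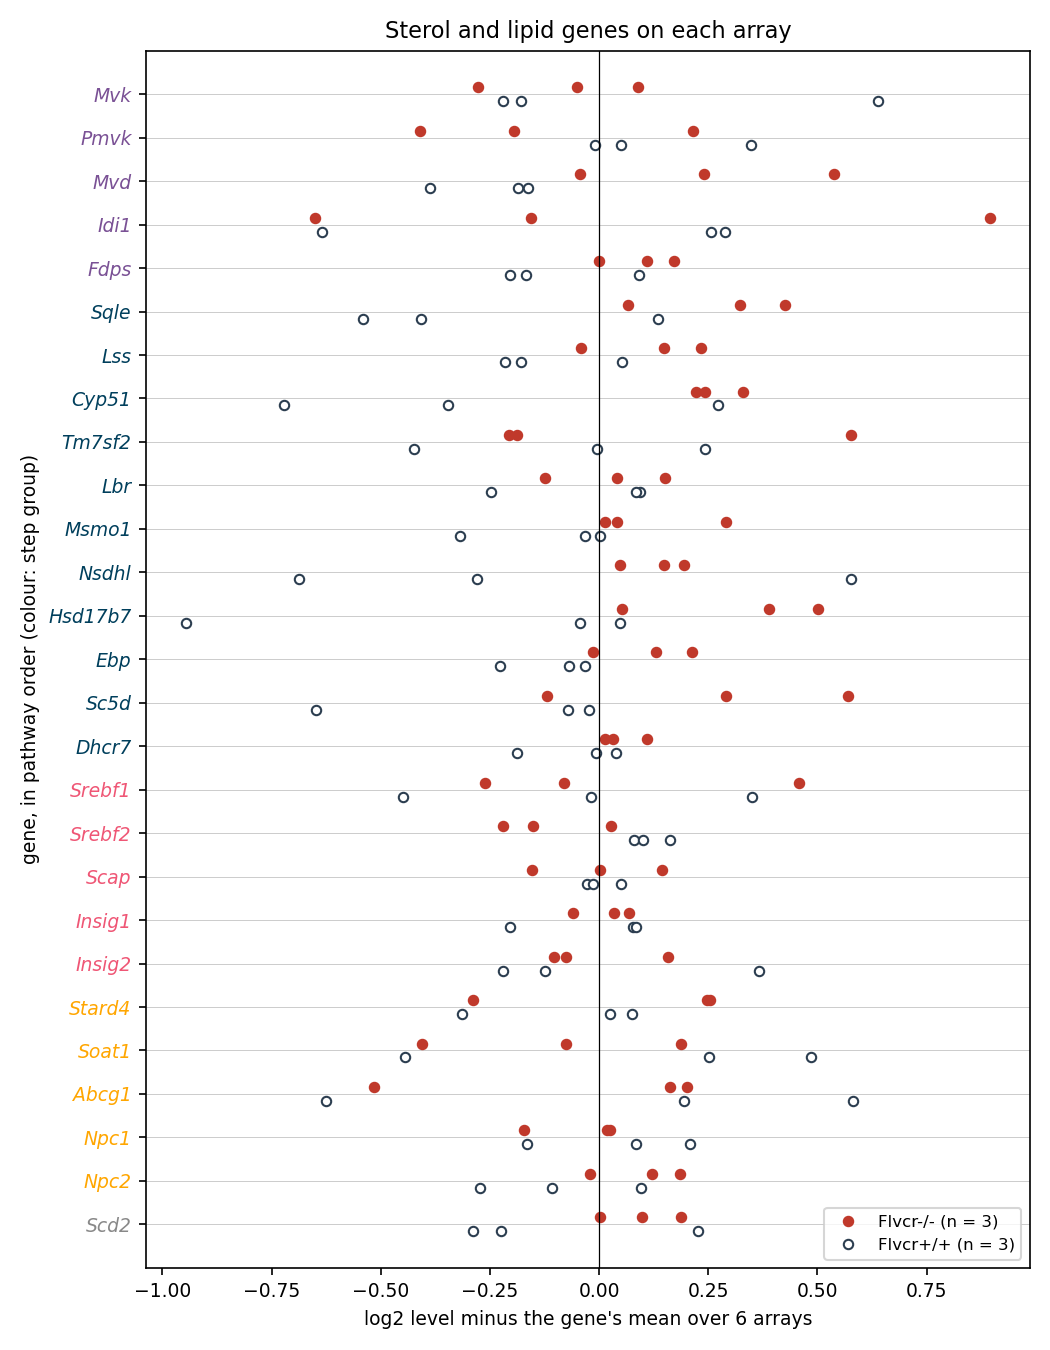
Log2 level of each of the 27 genes on each array, minus the gene's mean over the 6 arrays (horizontal axis), with genes in pathway order down the page. Filled points are the 3 Flvcr-/- arrays and open points the 3 Flvcr+/+ arrays. For most genes from Sqle to Dhcr7 the filled points lie to the right, and for Srebf2 all 3 lie to the left.

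The sequence just upstream of these genes is shown for 5 of them: Mvd and Hsd17b7, with an unadjusted p under 0.05, Cyp51, the heme enzyme, and Msmo1 and Srebf2, the only tested members whose window held the core of the sterol regulatory element. Each window runs from 250 bases before to 50 bases after the annotated start, 5′ to 3′ on the strand of the gene, from RefSeq on GRCm38.p6. They lie at chr8:122443373-122443672 on the minus strand for Mvd, chr1:169969156-169969455 on the minus strand for Hsd17b7, chr5:4104648-4104947 on the minus strand for Cyp51, chr8:64733529-64733828 on the minus strand for Msmo1 and chr15:82147019-82147318 on the plus strand for Srebf2. Capitals mark matches on either strand to TCACNCCA (that core, N being any base), CCAAT (the letters bound by NF-Y, a factor that works beside SREBP) or CACGTG (an E-box).
Mvd: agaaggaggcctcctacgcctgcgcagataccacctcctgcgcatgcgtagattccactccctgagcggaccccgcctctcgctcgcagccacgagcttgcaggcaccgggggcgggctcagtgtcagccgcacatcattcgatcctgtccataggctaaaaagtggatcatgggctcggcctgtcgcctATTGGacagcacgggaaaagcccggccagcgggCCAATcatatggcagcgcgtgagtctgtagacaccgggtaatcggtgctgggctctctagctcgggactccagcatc
Hsd17b7: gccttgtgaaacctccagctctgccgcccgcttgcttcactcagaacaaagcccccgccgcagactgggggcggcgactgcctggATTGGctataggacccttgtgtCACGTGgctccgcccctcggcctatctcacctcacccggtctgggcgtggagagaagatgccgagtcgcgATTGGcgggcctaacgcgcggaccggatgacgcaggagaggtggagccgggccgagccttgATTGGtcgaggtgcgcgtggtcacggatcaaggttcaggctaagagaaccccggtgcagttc
Cyp51: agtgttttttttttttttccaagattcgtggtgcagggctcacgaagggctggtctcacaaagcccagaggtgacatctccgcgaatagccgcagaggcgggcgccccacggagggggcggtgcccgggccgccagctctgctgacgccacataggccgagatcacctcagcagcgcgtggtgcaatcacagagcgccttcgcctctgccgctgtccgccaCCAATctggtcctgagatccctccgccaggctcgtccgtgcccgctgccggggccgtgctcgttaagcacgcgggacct
Msmo1: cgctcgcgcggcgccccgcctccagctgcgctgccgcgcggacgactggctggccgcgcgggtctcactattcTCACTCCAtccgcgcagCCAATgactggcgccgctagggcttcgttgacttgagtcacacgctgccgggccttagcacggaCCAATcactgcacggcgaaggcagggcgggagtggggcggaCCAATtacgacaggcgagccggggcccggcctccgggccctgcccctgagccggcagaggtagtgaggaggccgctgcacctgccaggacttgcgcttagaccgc
Srebf2: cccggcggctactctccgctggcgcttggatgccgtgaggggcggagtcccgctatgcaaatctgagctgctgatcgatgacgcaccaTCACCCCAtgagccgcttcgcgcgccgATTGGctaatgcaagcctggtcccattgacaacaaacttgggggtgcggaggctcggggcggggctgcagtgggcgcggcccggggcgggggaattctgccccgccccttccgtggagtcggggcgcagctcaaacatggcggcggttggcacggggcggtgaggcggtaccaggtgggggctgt

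Such a window was at hand for 21 of the 27 genes tested. CCAAT was found in 20 of 21 (95.2%), Scap being the exception, against 44.0% of 7110 tested genes with a window and 41.1% of 27025 genes in the table. All 14 genes of the synthesis chain with a window held it. TCACNCCA was found in 2 of 21 (9.52%), against 4.26% of tested genes, and CACGTG in 5 of 21 (23.8%), against 12.3% of tested genes. Where a gene had several starts, a match in any window counted. TCACNCCA and CCAAT can share letters, which they did not in the windows printed. A match describes the letters of the window and does not show that a factor was bound there.

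Among the genes that lead from mevalonate to the isoprenoid units, 3 of 5 measured had a positive log2 fold change and 2 a negative one, with a median of 0.06. Mvd, which decarboxylates mevalonate diphosphate, read 7.47, 6.89 and 7.17 on the Flvcr-/- arrays, against 6.74, 6.54 and 6.77 on the Flvcr+/+ arrays. All 3 Flvcr-/- arrays lay above all 3 Flvcr+/+ arrays. The log2 fold change of Mvd was 0.49 (SE 0.225, 95% interval 0.01 to 0.97, 1.41-fold), with an unadjusted p of 0.0461 and an adjusted p of 0.9997 by limma. Pmvk, the kinase of the step before, read 8.32, 7.69 and 7.91 on the Flvcr-/- arrays, against 8.15, 8.09 and 8.45 on the Flvcr+/+ arrays. The groups overlapped, and its log2 fold change was -0.26 (SE 0.204). Mvk, the first kinase of the chain, had -0.16, Idi1, the isomerase of the isoprenoid unit, had 0.06, and Fdps, which joins the units to farnesyl diphosphate, had 0.19. Another kept probe of Fdps gave 0.00. Idi1 was detected on 2 arrays of each genotype.

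All 11 measured genes from squalene to cholesterol had a positive log2 fold change, between 0.05 and 0.63 with a median of 0.23, and none passed the test. Lists from outside these pathways were also one-sided. Of the measured division genes 10 of 11 had a positive value (median 0.13), and of DNA replication genes 18 of 21 (median 0.12). Of 12 immediate-early genes 2 had a positive value, with a median of -0.22. Sqle, which adds the oxygen to squalene, read 8.96, 9.32 and 9.21 on the Flvcr-/- arrays, against 8.35, 8.48 and 9.03 on the Flvcr+/+ arrays. Flvcr+/+ array 3 lay within the range of the Flvcr-/- arrays and the other 2 lay below it. The log2 fold change of Sqle was 0.54 (SE 0.196, 95% interval 0.12 to 0.96, 1.46-fold), with an unadjusted p of 0.0145 and an adjusted p of 0.9997 by limma. A second kept probe of Sqle read 5.99, 6.51 and 6.64 on the Flvcr-/- arrays, against 5.20, 5.58 and 5.80 on the Flvcr+/+ arrays. This probe did not overlap between genotypes, with a log2 fold change of 0.85. It read near background, detected on 3 Flvcr-/- and 2 Flvcr+/+ arrays. Its value on Flvcr+/+ array 1 was below the lowest detected value of that array, 5.39.

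Hsd17b7, the sterol ketone reductase of the demethylation steps, read 7.48, 7.82 and 7.93 on the Flvcr-/- arrays, against 7.48, 6.48 and 7.38 on the Flvcr+/+ arrays. Flvcr-/- array 1 and Flvcr+/+ array 1 were all but level, and Flvcr+/+ array 2 was the lowest by a wide gap. Its log2 fold change of 0.63 was the highest of the 27 genes (SE 0.261, 95% interval 0.07 to 1.18, 1.55-fold), with an unadjusted p of 0.0297 and an adjusted p of 0.9997 by limma. Cyp51, the heme enzyme, read 7.19, 7.30 and 7.22 on the Flvcr-/- arrays, against 6.63, 6.25 and 7.24 on the Flvcr+/+ arrays. The Flvcr-/- arrays lay close together and Flvcr+/+ array 3 lay among them. The log2 fold change of Cyp51 was 0.53 (SE 0.254, 95% interval -0.01 to 1.07), with an unadjusted p of 0.0543. Sc5d, the sterol desaturase with non-heme iron, read 7.11, 6.83 and 6.42 on the Flvcr-/- arrays, against 6.52, 6.47 and 5.89 on the Flvcr+/+ arrays. Flvcr-/- array 3 lay below 2 of the Flvcr+/+ arrays, and the log2 fold change was 0.49 (SE 0.263).

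Msmo1, the iron-dependent sterol demethylase, read 8.24, 8.27 and 8.52 on the Flvcr-/- arrays, against 8.23, 7.91 and 8.20 on the Flvcr+/+ arrays. Ebp, which moves a double bond of the sterol ring, read 10.64, 10.41 and 10.56 on the Flvcr-/- arrays, against 10.20, 10.36 and 10.39 on the Flvcr+/+ arrays. Both had all Flvcr-/- arrays above all Flvcr+/+ arrays, by narrow margins, with log2 fold changes of 0.23 and 0.22. The remaining genes of this stretch overlapped between genotypes. Nsdhl, which removes the carboxyl group during demethylation, had a log2 fold change of 0.26, with 0.11 and 0.09 at its further kept probes and 0.16 with its probes averaged. Lss, which closes squalene oxide into lanosterol, had 0.23. The sterol reductases Tm7sf2 and Dhcr7 had 0.12 and 0.10. Lbr, a receptor of the nuclear lamina with sterol reductase activity, had 0.05, and its second kept probe had 0.32. For Nsdhl the SD was 0.075 on the Flvcr-/- arrays and 0.645 on the Flvcr+/+ arrays.

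**Figure D2:**
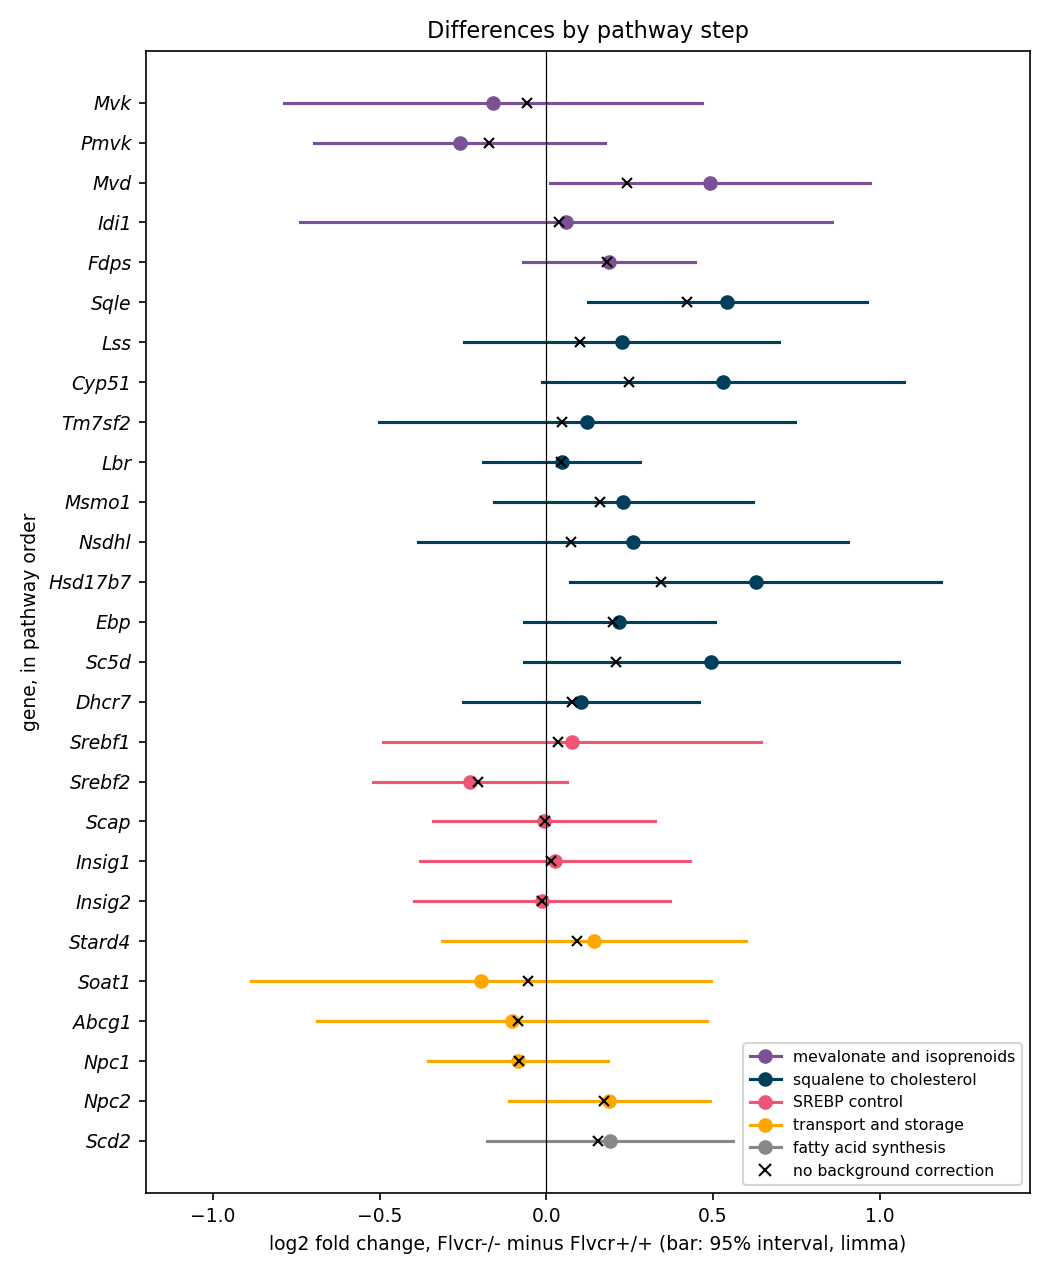
Log2 fold change of each gene, Flvcr-/- minus Flvcr+/+ (n = 3 each, horizontal axis), with genes in pathway order. Points and bars are the limma estimate and its 95% interval, and crosses the same estimate without background correction. The bars of Mvd, Sqle and Hsd17b7 lie to the right of 0, and all other bars cross 0.

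The oxygen-dependent enzymes among the genes (Sqle, Cyp51, Msmo1, Sc5d and Scd2) had a median log2 fold change of 0.49, and the 4 of them with heme or non-heme iron had 0.36. The 7 enzymes of the stretch from squalene to cholesterol that are not in that list had 0.22. The difference between these lists was not tested, and the values of the 5 (0.19 to 0.54) and of the 7 (0.05 to 0.63) overlapped. Between the single low-Xist array of each genotype, Sqle had -0.07, Cyp51 -0.05, Msmo1 0.05, Sc5d 1.22 and Scd2 0.41. The 7 then ran from -0.43 for Nsdhl to 0.58 for Tm7sf2. Without background correction of the intensities the log2 fold changes of many genes were smaller by over 1.5 times. From squalene to cholesterol they were then 0.10 for Lss, 0.25 for Cyp51, 0.046 for Tm7sf2, 0.075 for Nsdhl, 0.34 for Hsd17b7 and 0.21 for Sc5d. Elsewhere they were 0.24 for Mvd, -0.058 for Mvk, 0.038 for Idi1, 0.035 for Srebf1, 0.015 for Insig1, 0.091 for Stard4 and -0.055 for Soat1. That of Sqle was 0.42.

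Averaged over the 11 genes from squalene to cholesterol, each set to its own mean over the 6 arrays, the deviation was 0.17, 0.17 and 0.12 on the Flvcr-/- arrays, against -0.22, -0.22 and -0.02 on the Flvcr+/+ arrays. The Flvcr-/- arrays lay close together, and Flvcr+/+ array 3 lay nearest to them. Of the 11 genes, 10 had their highest value on a Flvcr-/- array, and all 11 had their lowest value on a Flvcr+/+ array. These counts rest on the same values as the 11 positive log2 fold changes and add no separate result. The share over all genes was not taken. The mevalonate genes did not separate this way, with 0.01, 0.07 and 0.02 on the Flvcr-/- arrays, against -0.23, -0.10 and 0.23 on the Flvcr+/+ arrays. Division genes, 11 of them measured, deviated by -0.45, 0.38 and 0.26 on the Flvcr-/- arrays, against 0.02, -0.68 and 0.47 on the Flvcr+/+ arrays. For 12 immediate-early genes that respond to cell handling the deviations were 0.13, -0.22 and -0.45 on the Flvcr-/- arrays, against 0.65, 0.12 and -0.24 on the Flvcr+/+ arrays. Both lists overlapped between genotypes while varying more between arrays than the sterol genes did, and their part in the sterol values was not tested.

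**Figure D3:**
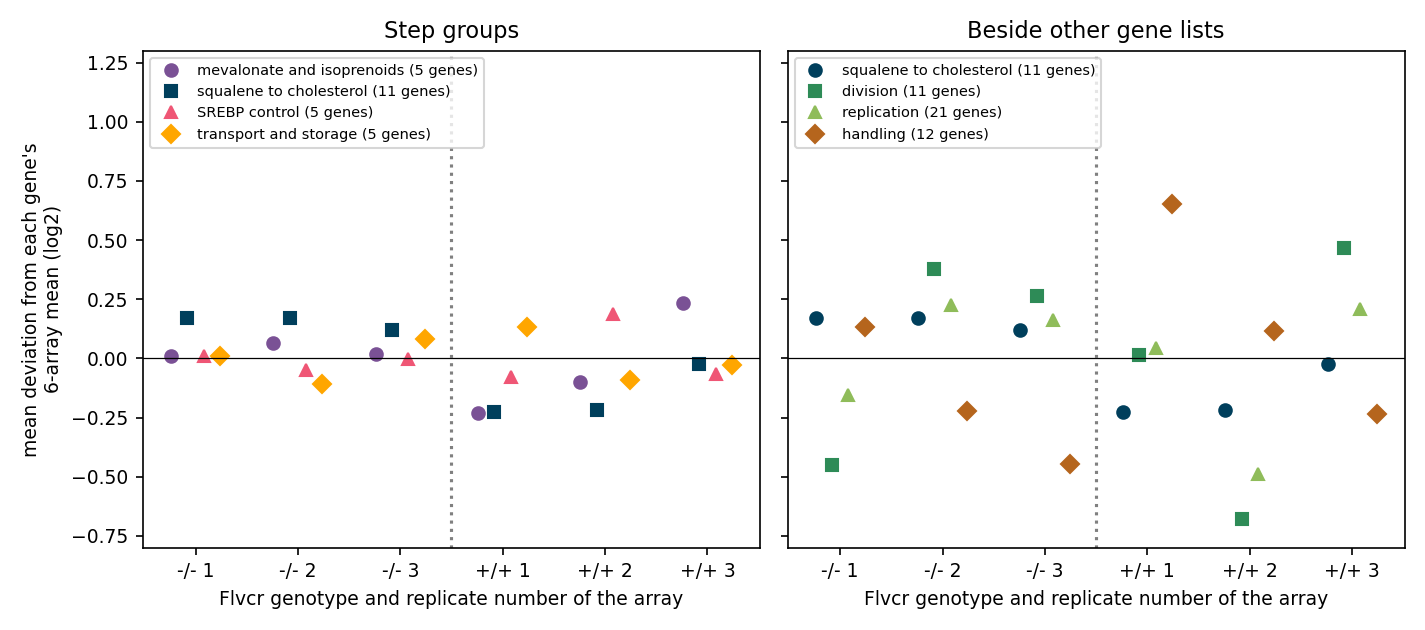
Mean deviation of a list's measured genes from each gene's mean over 6 arrays (vertical axis, log2) on each array (horizontal axis, Flvcr-/- replicates left of Flvcr+/+ replicates), for the pathway steps (left panel) and for genes of division, DNA replication and cell handling beside the squalene to cholesterol genes (right panel). The squalene to cholesterol points lie between 0.12 and 0.17 on the Flvcr-/- arrays and between -0.22 and -0.02 on the Flvcr+/+ arrays.

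Markers of other cell types were set beside the sterol genes. Of 10 dendritic cell genes, 7 were measured and 7 had a negative log2 fold change, with a median of -0.24. The mean log2 level of the 7 ran from 7.37 to 7.69 on the Flvcr-/- arrays, against 7.72 to 8.06 on the Flvcr+/+ arrays, with no overlap. Taken singly, only Cd74 (-1.13) did not overlap. Ccr7, detected on 1 Flvcr-/- array, had -0.76 and H2-Eb1, detected on 2, had -0.66. Bst2 had -0.24, Siglech -0.12, H2-Ab1 -0.10 and Cst3 -0.07. Of 7 B cell genes, 3 were measured, with a median log2 fold change of -0.05. The kappa light chain gene Igkc had -3.36 and passed the test, while the heavy chain gene Ighm had -0.05 and Cd79b, a chain of the B cell receptor complex, had 0.26. The mean log2 level over the 3 ran from 10.62 to 10.76 on the Flvcr-/- arrays, against 11.55 to 11.84 on the Flvcr+/+ arrays. Of the 3 genes, Igkc did not overlap between genotypes and Ighm and Cd79b did. Of the macrophage genes 2 of 10 were measured, of the stromal and epithelial genes 2 of 8 and of the granulocyte genes 0 of 5. The mean log2 level of 2 globin genes ran from 7.82 to 12.44 on the Flvcr-/- arrays, against 10.14 to 12.02 on the Flvcr+/+ arrays. In these bulk samples fewer cells and less RNA per cell, in whichever cells express a gene, cannot be told apart. The part of other cell types in the sterol values was not tested.

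The regulators of the pathway lay on both sides of 0, with 2 positive and 3 negative values among 5 genes and a median log2 fold change of -0.01. Srebf2, the precursor of the main activator of sterol synthesis, read 10.19, 9.94 and 10.01 on the Flvcr-/- arrays, against 10.25, 10.33 and 10.26 on the Flvcr+/+ arrays. All 3 Flvcr-/- arrays lay below all 3 Flvcr+/+ arrays, with a log2 fold change of -0.23 (SE 0.136, 95% interval -0.52 to 0.06) and an unadjusted p of 0.115. A second kept probe of Srebf2 gave -0.00, so its probes disagree. Srebf1, which encodes the form that mainly drives fatty acid synthesis, read 6.72, 6.54 and 7.26 on the Flvcr-/- arrays, against 6.79, 7.16 and 6.36 on the Flvcr+/+ arrays. Its groups overlapped, and the log2 fold change was 0.08. Scap had -0.01, Insig1 had 0.03 and Insig2 had -0.01. Further kept probes gave 0.16 and 0.23 for Insig1 and 0.37 for Insig2. At this second Insig2 probe all 3 Flvcr-/- arrays lay above all 3 Flvcr+/+ arrays (unadjusted p = 0.0618, limma). The Insig2 probes therefore disagree as well. Insig1 is itself a well-known target of SREBP and had a 95% interval of -0.38 to 0.43.

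Sterol transport and storage genes had 2 positive and 3 negative values among 5 measured, with a median log2 fold change of -0.08. Soat1, which esterifies cholesterol for storage, was detected on 1 Flvcr-/- array and 2 Flvcr+/+ arrays. It read 5.17, 4.84 and 5.44 on the Flvcr-/- arrays, against 5.50, 4.80 and 5.73 on the Flvcr+/+ arrays, with a log2 fold change of -0.20 (SE 0.322). Its groups overlapped near background. Npc2, the soluble protein that lifts cholesterol out of the lysosome, read 10.60, 10.54 and 10.39 on the Flvcr-/- arrays, against 10.14, 10.31 and 10.51 on the Flvcr+/+ arrays. The groups overlapped, and the log2 fold change was 0.19 (SE 0.141). Its membrane partner Npc1 had -0.08, with -0.01 and 0.17 at further kept probes. The cholesterol exporter Abcg1 had -0.10 and the sterol carrier Stard4 had 0.14. Of the fatty acid genes, Scd2, which puts a double bond into saturated fatty acids, read 9.39, 9.30 and 9.20 on the Flvcr-/- arrays, against 9.43, 8.91 and 8.98 on the Flvcr+/+ arrays. Flvcr+/+ array 1 was the highest of the 6, and the log2 fold change was 0.19 (SE 0.172).

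Of 69 further genes of these pathways, 40 were measured, 21 with a positive and 19 with a negative log2 fold change and a median of 0.02. By limma 0 of the 40 passed at an adjusted p under 0.05, and 2 had an unadjusted p under 0.05 (5%, against 4.63% of all genes). Pggt1b, a subunit of the transferase that attaches geranylgeranyl groups to proteins, had 0.49 (unadjusted p = 0.0089, adjusted p = 0.912, limma). Arv1, which takes part in sterol movement out of the endoplasmic reticulum, had -0.44 (unadjusted p = 0.0430, limma). Coq2 of ubiquinone synthesis had 0.33, and the desaturases Fads2 and Fads1 had 0.59 and 0.20. The nuclear receptor gene Rora had -0.46. Tmem97 and Scarb2, of the endoplasmic reticulum and the lysosome, had 0.47 and -0.21. Among genes of SREBP turnover, Vcp had -0.15 and Fbxw7 had 0.09. Of the electron donors to the oxygen-dependent steps, Cyb5b had 0.20 and Cyb5a had -0.14.

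The genotypes were also compared within the high-Xist and within the low-Xist arrays, a split chosen after the data were seen. On the high-Xist arrays (2 Flvcr-/- and 2 Flvcr+/+), Sqle had a log2 fold change of 0.85 with an adjusted p of 0.0443 by limma, the only call among the 27 genes, where 0.84% of all genes were called. There 5 of 27 genes had an unadjusted p under 0.05, against 10.6% of all genes. Hsd17b7 had 0.89, Cyp51 had 0.82, Nsdhl had 0.60 and Idi1 had 0.54 on these arrays. Between the single low-Xist array of each genotype, which allow no test, Sqle had -0.07, Hsd17b7 0.10, Cyp51 -0.05, Nsdhl -0.43 and Idi1 -0.91. Mvd had 0.38 on the high-Xist arrays and 0.70 between the low-Xist arrays, and Sc5d had 0.13 and 1.22. Abcg1 had -0.57 on the high-Xist arrays and 0.83 between the low-Xist arrays.

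The difference between the 2 patterns was tested as an interaction in limma over all 6 arrays, with 1 low-Xist array per genotype assumed to vary like the others. It called 0 of 27 genes at an adjusted p under 0.05, where 0.454% of all genes were called, and the smallest adjusted p was 0.172 for Abcg1. At an unadjusted p under 0.05 there were 4 of 27 genes (Sqle, Idi1, Sc5d and Abcg1), against 9.63% of all genes. Median log2 fold changes over the 27 genes were 0.13 on the high-Xist arrays and 0.05 between the low-Xist arrays, against 0.00 and 0.02 over all genes.

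**Figure D4:**
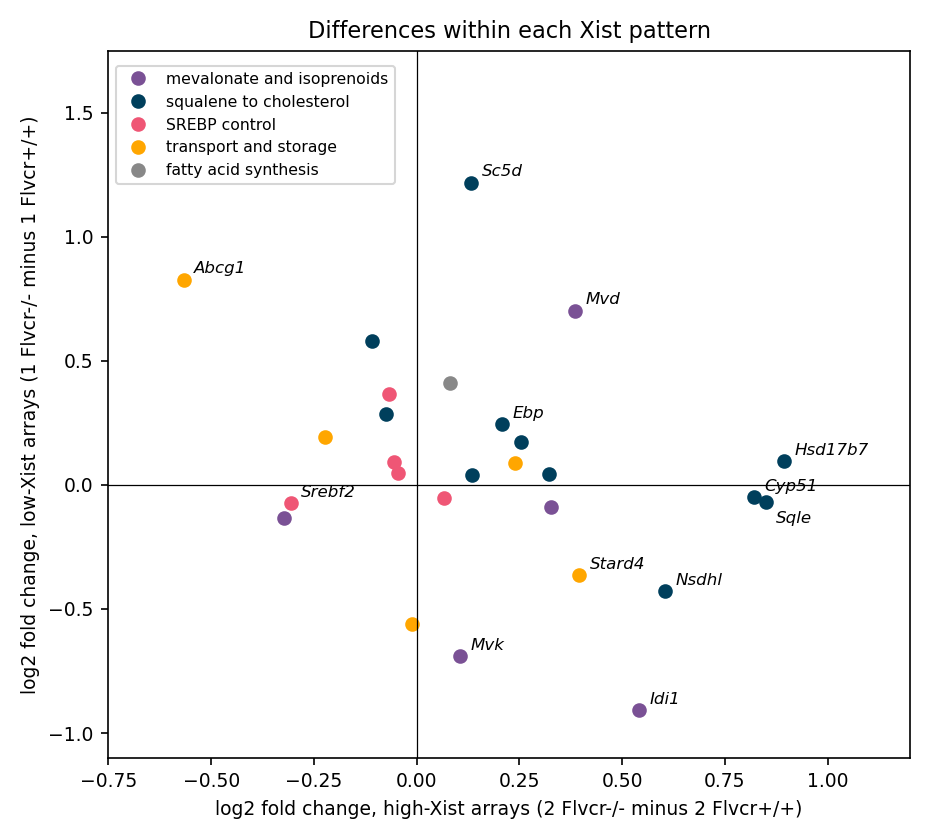
Log2 fold change of each of the 27 genes, Flvcr-/- minus Flvcr+/+, on the high-Xist arrays (2 against 2, horizontal axis) and between the low-Xist arrays (1 against 1, vertical axis), coloured by pathway step. Hsd17b7, Cyp51 and Sqle lie far to the right near 0 on the vertical axis, Sc5d lies high near 0 on the horizontal axis, and Mvd is above 0 on both.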

How the data were processed

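Total RNA of sorted cells was biotin-labelled and hybridised to 6 Illumina bead arrays, grouped by title. The deposited table of linear probe intensities was not normalized between arrays and gave a detection p-value per probe, per the file headers. The deposited log2 values matched these intensities after quantile normalization alone (largest difference 5e-09), and the submitters' processing notes name lumi. Probes were named from the platform annotation, updated through RefSeq (GRCm38.p6), with 9497 of 45281 unnamed.

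Intensities were processed by neqc (limma 3.58.1, R 4.3.3; offset 16, negative controls inferred from detection p). Detection (p under 0.05) on 3 or more arrays left 15448 probes. Genotypes were compared by lmFit, then eBayes allowing a variance trend, 2-sided, Benjamini-Hochberg adjusted over all kept probes at 0.05. The offset understates changes of dim probes, and 3 arrays a group limit the precision: the median 95% interval of a member was ± 0.44 (log2).

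The members and all lists were chosen with earlier results of these data known, in which genes of cholesterol synthesis were already described, so the counts are no independent support. All members were named. Values on every array were given for members with an unadjusted p under 0.05, for the 2 with the largest absolute log2 fold change per step and, after their values were seen, for Cyp51, Sc5d, Msmo1, Ebp and the second Sqle probe. Ighm, Cd79b and the dendritic cell genes were also named after their values were seen. From the other pathway lists the 2 genes with the smallest p were named. Same-numbered arrays were not paired, since their deviations correlated by only -0.15, 0.09 and 0.11. Even so, 4 of 6 arrays correlated best with the array of their own number in the other genotype. The fit was tested on simulated arrays, whose added changes were all in probes brighter than the median kept probe. Their noise was independent between probes, so that test does not cover dim or co-regulated genes. Alternatives changed background correction, normalization, filter, variance model, array weights, replicate block, an Xist covariate, each array left out, the probe rule and the threshold. The splits by Xist pattern were added after the data were seen. Probe positions and protein sequences were not used here.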

Additional observations from a re-analysis of the deposited data

How the results depend on the processing

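The count of calls among the 27 genes was 0 under every other setting tried over both Xist patterns, each array left out and an adjusted p of 0.1 included, and 1 (Sqle) on the high-Xist arrays alone. The count at an unadjusted p under 0.05, 3 as reported, was 6 with array weights, 5 on the high-Xist arrays, and 1 to 5 with an array left out. The median over the 27 genes, 0.12 as reported, was 0.19 with the strict filter (all arrays of either genotype detected, p under 0.01), 0.19 with array weights, 0.050 between the low-Xist arrays, and 0.10 to 0.16 with an array left out. With the replicate block, 0 genes were called, 3 had an unadjusted p under 0.05 and the median was 0.12. The block is balanced over genotypes, so it cannot change the median and only the counts are a check. 

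The median of the squalene to cholesterol genes was 0.16 without background correction, 0.10 between the low-Xist arrays and 0.19 to 0.28 with an array left out. All of its measured genes were above 0 under 13 of 20 settings, the main one included, the exceptions being Lbr, Tm7sf2, Nsdhl, Sqle and Cyp51. Tm7sf2 fell below 0 without Flvcr-/- array 1, and Lbr without Flvcr-/- array 2 or without Flvcr+/+ array 3. Nsdhl and Tm7sf2 did so without Flvcr+/+ array 1. No gene did without Flvcr-/- array 3 or without Flvcr+/+ array 2. The other exceptions came with array weights and within each Xist pattern. The detection filters, the variance model and the replicate block cannot change the log2 fold change of a probe. Agreement in sign under those settings was therefore fixed in advance. Medians of the other steps depended more on the setting. The mevalonate genes had 0.33 on the high-Xist arrays, -0.13 between the low-Xist arrays and -0.24 to 0.24 with an array left out. SREBP control genes had 0.077 with probes averaged per gene and -0.08 to 0.07 with an array left out. Transport genes had 0.029 with no filter, 0.029 with the strict filter, 0.024 with probes averaged, 0.089 between the low-Xist arrays and -0.12 to 0.13 with an array left out. Scd2 had 0.41 between the low-Xist arrays.

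Genes near 0 changed sign, and so did some with larger values. Among the latter, Sqle (0.54 as reported) had -0.07, Cyp51 (0.53) had -0.05 and Nsdhl (0.26) had -0.43 between the low-Xist arrays. With array weights Insig2 had 0.037, Lbr -0.067 and Mvk 0.040. On the high-Xist arrays Lbr had -0.075, Mvk 0.11, Srebf1 -0.068 and Tm7sf2 -0.11. With median scaling Insig2 had 0.0091 and Scap 0.028, with probes averaged Insig2 had 0.18 and Npc1 0.024, and with an Xist covariate Scap had 0.00095. With an array left out, the ranges were -0.13 to 0.16 for Insig2, -0.068 to 0.12 for Lbr, -0.31 to 0.12 for Mvk, -0.079 to 0.069 for Scap, -0.13 to 0.27 for Srebf1, -0.14 to 0.27 for Tm7sf2, -0.44 to 0.16 for Abcg1, -0.37 to 0.40 for Idi1, -0.070 to 0.076 for Insig1 and -0.019 to 0.62 for Nsdhl. The cause was not tested.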

Other observations

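The sterol and lipid genes varied less between the Flvcr-/- arrays than between the Flvcr+/+ arrays. The SD was larger in the Flvcr+/+ group for 19 of 27 genes, against 50.8% of all genes tested. The median SD was 0.149 on the Flvcr-/- arrays and 0.212 on the Flvcr+/+ arrays for the 27 genes, against 0.193 and 0.195 over all genes. Cyp51 had SDs of 0.056 on the Flvcr-/- arrays and 0.502 on the Flvcr+/+ arrays. The difference in spread was not tested.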
